A study of Bos taurus with 60 samples.

Results

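NUPR1, SYVN1 and DNAJC12 are 3 bovine genes of cell stress and protein quality control, and their expression in the mammary gland was followed from late lactation through the dry period. They make up 3 of the 25223 loci counted. The genes were chosen by name with earlier results of these data in view, and each was tied to a locus through the symbols in the study's gene tables. NUPR1 is locus XLOC_014764 (ENSBTAG00000018016) and was listed there for D7 vs. D3. SYVN1 is XLOC_016670 (ENSBTAG00000005076) and DNAJC12 is XLOC_015951 (ENSBTAG00000010932), both listed for D3 vs. D-3. In the RefSeq annotation of the ARS-UCD2.0 assembly they lie on chromosomes 25, 29 and 28, respectively. Each locus holds 1 ENSEMBL gene. Because tabulated differences between time points led to the choice, contrasts with D-3 and D7 vs. D3 are given for these genes as descriptions without a test. The same holds for DNAJC12 in HT vs. CL after dry-off, where earlier results had already shown its values.

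Biopsies came from 12 multiparous Holstein cows, all pregnant and at the end of a lactation. From dry-off onwards, 6 cows were heat-stressed (HT) with access to shade only, and 6 were cooled (CL) with shade, fans and soakers. Every cow gave a biopsy on D-3 and again on D3, D7, D14 and D25, counted in days from dry-off, for a total of 60 libraries. The gland of the udder that was biopsied alternated between time points. D-3 lies in late lactation and before either treatment, so HT and CL at D-3 are groups of cows that had been handled alike.

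When milk removal stops, the secretory epithelium shuts down milk synthesis and part of it is lost and rebuilt before the next calving. Secretory cells make large amounts of protein in the endoplasmic reticulum (ER) and rely on chaperones and degradation to keep it folded. NUPR1 is a small chromatin-associated protein whose gene is switched on by many kinds of cell stress, including the response to unfolded proteins and to lack of amino acids. SYVN1, also called HRD1, is a ubiquitin ligase of the ER membrane and the core of ER-associated degradation, which moves misfolded proteins out to the proteasome. DNAJC12 is a J-domain co-chaperone that hands client proteins to HSP70.

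Total counts per library were 20525083 to 26183990, with a median of 22637562.5. Levels are CPM, counts scaled to a common library size, after TMM scaling, a factor per library that lines up the bulk of the genes. No gene lengths were used, so levels are compared between samples and never between genes. All 3 genes were above 1 CPM in 60 of 60 samples and passed the filter that left 14714 loci for testing. NUPR1 had 587 to 10192 reads per library and DNAJC12 had 114 to 14842. SYVN1 was the thinnest, with 54 to 358 reads, and its lowest count has an exact 95% Poisson interval of 40.6 to 70.5 that covers counting error only. The D14 library of CL cow 7965 stood apart from the other 59. Its KRT19, a luminal epithelial keratin, was 3.36 CPM against 231 to 3227 CPM elsewhere, and its DCN, made by fibroblasts, was 5393 CPM against 386 to 1625 CPM. For HT cows 8513 and 8660, the D3 and D7 samples of each were most alike to the D25 sample of the other, while D14 and D25 matched within each cow, so their labels at D14 and D25 may be exchanged. Some of the values without these libraries are given below.

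NUPR1 was at its highest in some cows in late lactation and at D3, and from D7 its range across cows was narrower, with a lower top. Not every cow went down, and 5 of 12 were higher at D7 than at D-3. Across the 12 cows, the lowest, median and highest NUPR1 levels were 33.9, 70.0 and 395 CPM at D-3. They were 35.5, 80.1 and 520 CPM at D3 and then 23.9, 49.2 and 128 CPM at D7. The later time points stayed in this lower range. At D14 NUPR1 was 27.9, 48.4 and 97.8 CPM, and at D25 it was 23.8, 39.3 and 82.1 CPM. The mean ± SD (n = 12) was 132 ± 127 CPM at D-3, 177 ± 178 CPM at D3, 54.9 ± 27.4 CPM at D7 and 45.0 ± 16.4 CPM at D25. On the log2 scale, NUPR1 at D7 differed from D3 by -1.69 ± 0.40 (SE), a level 3.22-fold lower.

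The NUPR1 mean at D3 rested on a small number of cows. HT cow 8713 had 520 CPM, CL cow 8564 had 437 CPM, HT cow 8541 had 363 CPM and CL cow 8647 had 308 CPM. The remaining 8 cows ranged from 35.5 to 115 CPM, so a wide gap parted these from the cows at the top, and both treatments lay on each side of it. Within cows, NUPR1 was lower at D7 than at D3 in 9 of 12 and higher at D3 than at D-3 in 6 of 12. Between D-3 and D3 the individual cows moved in opposite directions, from -3.00 on the log2 scale in cow 7965 to 1.87 in cow 8647. The fitted log2 difference was 0.42 ± 0.39, and it was 0.80 without cow 7965 and 0.18 without cow 8713.

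SYVN1 was highest in late lactation in some cows and varied little afterwards. Its lowest, median and highest levels were 2.37, 5.60 and 39.5 CPM at D-3 and 2.25, 3.91 and 9.02 CPM at D3. They were 2.60, 3.91 and 8.46 CPM at D7. They were 2.25, 4.07 and 6.08 CPM at D14 and 2.19, 3.67 and 5.55 CPM at D25. The ranges at D-3 and D3 overlapped, and the medians from D3 onwards lay close together. SYVN1 at D3 differed from D-3 by -1.68 ± 0.33 on the log2 scale, and at D25 it differed from D-3 by -1.86 ± 0.33. These values compare means, to which the highest D-3 libraries contribute most. SYVN1 was lower at D3 than at D-3 in 9 of 12 cows, with a median within-cow log2 difference of -0.67. It was lower than at D-3 in 6 of 12 cows at D7, 6 of 12 at D14 and 7 of 12 at D25. The median within-cow difference at D25 was -0.58. With library-size scaling, relative to the median of all loci, the fitted difference at D25 was -1.105. The mean ± SD (n = 12) went from 14.1 ± 13.6 CPM at D-3 to 4.38 ± 1.84 CPM at D3 and 3.86 ± 0.83 CPM at D25, so the spread between cows shrank with the mean.

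DNAJC12 had the widest range of the 3 genes. Its lowest, median and highest levels were 6.38, 86.8 and 2018 CPM at D-3. At D3 they were 4.64, 17.9 and 129 CPM, and at D7 they were 7.50, 26.4 and 212 CPM. The top of the range thus lay far below that of late lactation, while the bottom was about the same. The levels at D14 were 5.09, 30.2 and 70.7 CPM, and those at D25 were 7.10, 18.3 and 60.3 CPM. On the log2 scale DNAJC12 at D3 differed from D-3 by -3.93 ± 0.75, a level 15.2-fold lower, and at D25 by -4.84 ± 0.79, a level 28.6-fold lower. These folds compare means, to which the highest D-3 libraries contribute most. Within cows, the median log2 difference was -2.38 at D3 and -1.43 at D25, and 3 of 12 cows were higher at D25 than at D-3. With library-size scaling, relative to the median of all loci, the fitted difference at D25 was -3.74. It was lower at D3 than at D-3 in 10 of 12 cows, with CL cows 8686 and 8060 as the exceptions. These were the cows with the lowest DNAJC12 in late lactation, at 6.38 and 7.44 CPM.

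**Figure D1:**
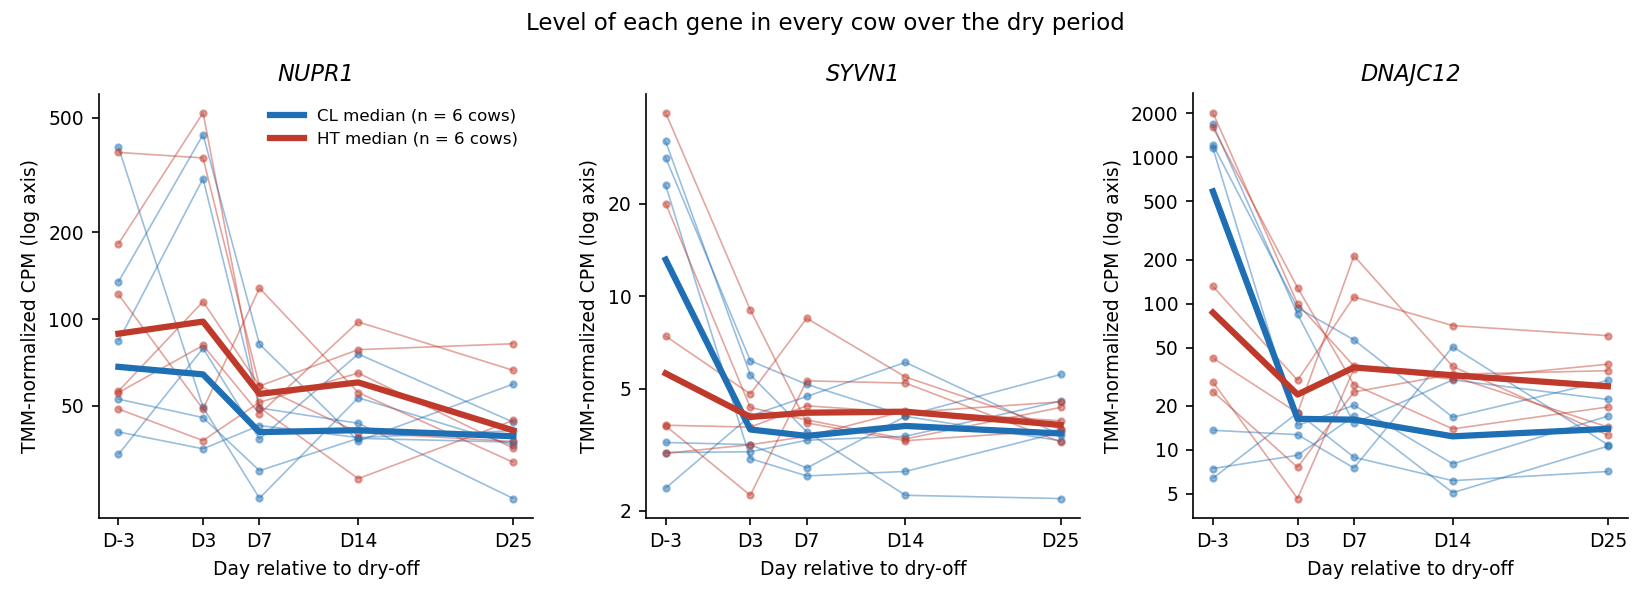
TMM-scaled CPM (log axis) of NUPR1, SYVN1 and DNAJC12 in each of 12 cows over the 5 time points, with thin lines for cows (CL blue, HT red) and thick lines for the median of 6 cows. DNAJC12 at D-3 spans 6.38 to 2018 CPM, NUPR1 keeps a wide spread at D3 (35.5 to 520 CPM), and HT and CL ranges overlap in every panel and at every time point.

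For SYVN1 and DNAJC12 the spread between cows was larger at D-3 than at each later time point. The SD of log2 CPM over the 12 cows at D-3 was 3.33 for DNAJC12, larger than for 99.7% of the loci tested, whose median SD was 0.47. It was 1.56 for SYVN1 (larger than for 95.05%) and 1.21 for NUPR1 (larger than for 90.2%). NUPR1 was more variable at D3, with an SD of 1.47 that exceeded 96.9% of loci. By D25 the SD of SYVN1 was 0.32, larger than for 50.1% of loci, which is the middle of the distribution.

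The share of each library taken by 3 milk protein genes, CSN1S1, CSN2 and LALBA, differed between the same cows at D-3. It was 40.2% to 49.8% in 8713, 8647, 8541, 7965 and 8564, and 8.03% in HT cow 8668. In the other 6 cows it was 0.19% to 1.47%, although all were sampled before dry-off. DNAJC12 was 1157 to 2018 CPM in the first-named 5 cows. It was 131 CPM in cow 8668 and 6.38 to 42.4 CPM in the other 6. SYVN1 was 19.99 to 39.5 CPM in the first-named 5 cows and 2.37 to 7.40 CPM in the remaining 7. For both genes the levels in these cows did not overlap with the rest. The share of all loci tested that part these cows in the same way was not computed. Whether the separation is particular to these genes was thus not tested. NUPR1 was 83.8 to 395 CPM against 33.9 to 122 CPM, and here the ranges overlapped, with HT cow 8513 at 122 CPM above CL cow 8647 at 83.8 CPM. The part of milk gene expression in these levels was not tested. In bulk tissue, fewer cells of a type and less RNA per cell cannot be told apart.

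Scaling bore on these D-3 levels. A library dominated by milk transcripts leaves fewer reads for the rest, and the TMM factor was 0.30 to 0.42 in the 5 libraries with the most milk transcripts and 1.02 to 1.21 in the other 7. Scaled by library size alone, DNAJC12 was 479 to 605 CPM in the former and 7.52 to 135 CPM in the latter, so the ranges stayed apart. SYVN1 was 5.99 to 14.3 CPM against 2.85 to 7.53 CPM and the ranges overlapped, with cow 8513 above cow 8713. NUPR1 was 28.0 to 165.5 CPM against 40.7 to 123.8 CPM. Cow 8647, among the 5 with the most milk transcripts, then had the lowest NUPR1 of all cows, at 28.0 CPM. Under library-size scaling the median of all loci moved by 0.36 on the log2 scale for D3 vs. D-3. Relative to that median, the log2 difference at D3 vs. D-3 was -3.01 for DNAJC12, -0.98 for SYVN1 and 0.77 for NUPR1, against -3.93, -1.68 and 0.42 with TMM. None of the 3 directions changed.

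**Figure D2:**
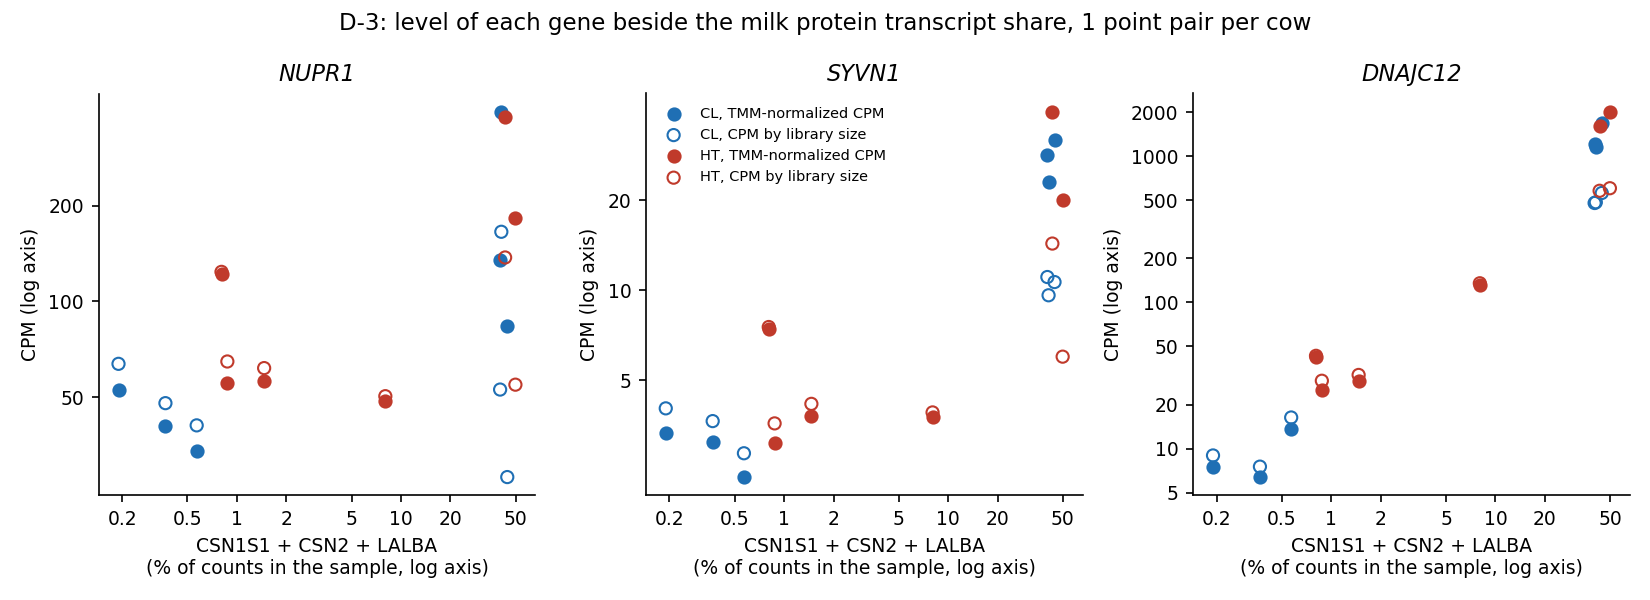
CPM of NUPR1, SYVN1 and DNAJC12 at D-3 (log axis) against the percent of counts from CSN1S1, CSN2 and LALBA (log axis), with 1 pair of points per cow, filled for TMM scaling and open for library size alone. DNAJC12 reaches 1157 to 2018 TMM CPM in the 5 cows at 40.2% to 49.8% and stays at or under 131 CPM in the other 7, and its open points also lie apart.

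After dry-off the cows with the most milk transcripts were often those with the most DNAJC12. At D3 the milk share was 7.45% in cow 8541, 6.31% in 8647, 5.58% in 8564 and 3.66% in 8713, and 0.01% to 1.01% in the other 8. DNAJC12 in the 4 cows was 129, 84.7, 93.6 and 99.7 CPM, above the 4.64 to 29.9 CPM of the rest. These were also the cows with the highest NUPR1 at D3. For D3 too, the share of all loci tested that part these cows in the same way was not computed. Whether this separation is particular to these genes was not tested. At D7, HT cow 8513 had the largest milk share, 14.5%, and the highest level of all 3 genes, with NUPR1 at 128 CPM, SYVN1 at 8.46 CPM and DNAJC12 at 212 CPM. At D14 and D25, HT cow 8668 was first for both milk share (3.58% and 3.37%) and DNAJC12 (70.7 and 60.3 CPM). CL cow 8686 was an exception, with a milk share of 1.96% at D7 and 1.70% at D25 but DNAJC12 at 8.89 and 7.10 CPM. NUPR1 and SYVN1 peaked in other cows at D14 and D25. NUPR1 was highest in 8314 at D14 and in 8541 at D25, and SYVN1 in 8603 and in 8564. Whether milk gene expression played a part in these levels was not tested.

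From D7 onwards the genes were tested, since they had not been listed for these contrasts. NUPR1 was listed for D7 vs. D3, so its contrasts with D7 share libraries with the choice and are not independent of it. The study had already reported that D14 vs. D7 and D25 vs. D14 gave no differentially expressed genes at an FDR of 0.05. No difference between D7, D14 and D25 passed the test for any of the 3. Of 9 gene-by-contrast tests, 0 reached an FDR of 0.05 in edgeR's quasi-likelihood F-test, 0 had an unadjusted p under 0.05, and DESeq2 gave the same 0 in both counts. Across all loci the percent called was 0.0 for D14 vs. D7, 0.0612 for D25 vs. D14 and 0.0 for D25 vs. D7. The edgeR test gave 257, 534 and 298 loci with an unadjusted p under 0.05, and DESeq2 gave 245, 552 and 356. The loci called at D25 vs. D14 numbered 9, and without the D14 library of cow 7965 they numbered 0, with 77, 115 and 363 loci at an unadjusted p under 0.05 in the 3 contrasts. With the cow as a block 0 were called there as well, and without cows 8513 and 8660 there were 14.

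The intervals come from a fit without a term for the cow, in which the dispersion of a gene is shared by all time points. They leave the pairing of samples out and also reflect the spread at D-3 and D3. Within cows, the SD of the log2 difference at D14 vs. D7 was 0.37 for SYVN1, 0.83 for NUPR1 and 1.405 for DNAJC12. For SYVN1 the log2 difference at D14 vs. D7 was -0.09 (95% interval -0.73 to 0.55) and at D25 vs. D14 -0.07 (-0.71 to 0.57). For NUPR1 these were -0.01 (-0.79 to 0.76) and -0.27 (-1.05 to 0.51). DNAJC12 was known less precisely, at -0.78 (-2.14 to 0.57) for D14 vs. D7 and -1.05 (-2.41 to 0.31) for D25 vs. D7. Without cow 8513 these were -0.29 and -0.45, so these values depended on that cow, which had 212 CPM at D7. Within cows, DNAJC12 was lower at D14 than at D7 in 9 of 12, NUPR1 in 6 of 12 and SYVN1 in 7 of 12. For D7 vs. D3, the DNAJC12 log2 difference was 0.14 ± 0.67 with all cows and -0.47 without 8513. It was also below 0 without HT cow 8668, and 6 cows moved each way.

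**Figure D3:**
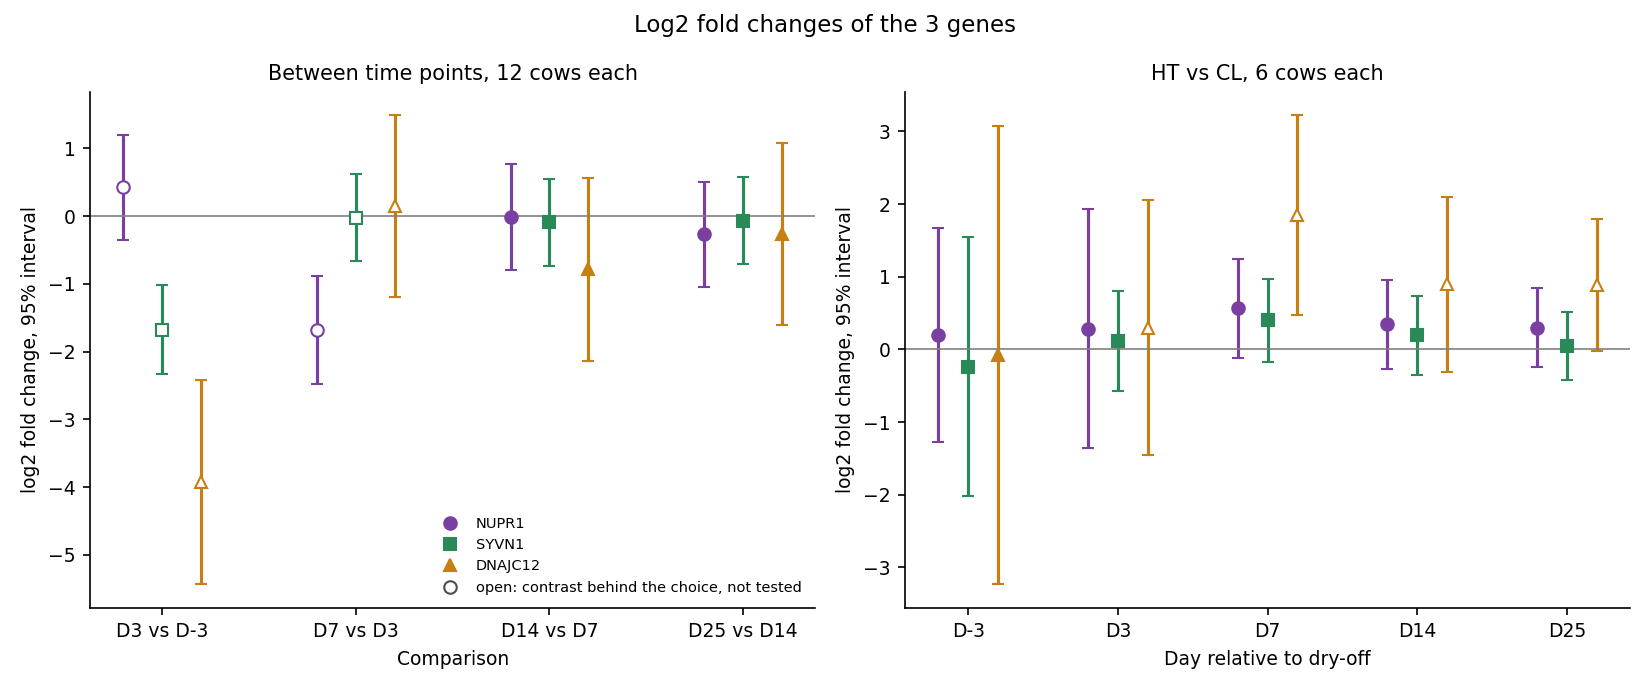
log2 fold changes of NUPR1, SYVN1 and DNAJC12 with 95% intervals from edgeR, for successive time points (left, 12 cows each) and for HT vs. CL at each time point (right, 6 cows against 6). Filled symbols were tested and all of their intervals cover 0, while open symbols are contrasts behind the choice of genes and were not tested, among them DNAJC12 at D3 vs. D-3 at -3.93.

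Heat stress was compared with cooling separately for every time point, with 6 cows against 6. NUPR1 in CL had a lowest, median and highest level of 23.9, 40.5 and 81.9 CPM at D7, and in HT of 46.9, 55.0 and 128 CPM. All 6 HT cows were above the CL median and 4 CL cows were below the lowest HT cow, yet the ranges overlapped through CL cows 8564 (81.9 CPM) and 8647 (49.2 CPM). The log2 difference was 0.56 ± 0.32 (95% interval -0.12 to 1.25, FDR = 0.959 by edgeR). At D3 NUPR1 was 35.5, 64.3 and 437 CPM in CL and 37.9, 98.0 and 520 CPM in HT, with a log2 difference of 0.29 (-1.36 to 1.93, FDR = 1.0 by edgeR). That value was -0.31 without HT cow 8713. The differences at D14 and D25 were 0.35 (-0.26 to 0.96, FDR = 0.998 by edgeR) and 0.30 (-0.24 to 0.84, FDR = 0.997 by edgeR). Before the treatments, at D-3, the difference in NUPR1 was 0.20 with an interval of -1.27 to 1.67.

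SYVN1 was 2.60, 3.51 and 5.16 CPM in CL at D7 and 3.49, 4.17 and 8.46 CPM in HT. The HT values lay higher in the range but the groups overlapped, and the log2 difference was 0.40 ± 0.26 (95% interval -0.17 to 0.97, FDR = 0.959 by edgeR). At D14 it was 2.25, 3.78 and 6.08 CPM in CL and 3.38, 4.20 and 5.45 CPM in HT, a difference of 0.19 (-0.35 to 0.74). At D3 the difference was 0.11 (-0.57 to 0.80) and at D25 it was 0.04 (-0.42 to 0.51). Without cow 8513 the D7 log2 difference was 0.18 for SYVN1 and 0.26 for NUPR1.

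For DNAJC12, the values after dry-off are descriptive. CL cows had 9.18, 16.3 and 93.6 CPM and HT cows 4.64, 23.9 and 129 CPM at D3. At D7 the lowest, median and highest levels were 7.50, 16.1 and 56.4 CPM in CL and 24.9, 36.6 and 212 CPM in HT. All 6 HT cows were above the CL median at D7, and 5 of 6 CL cows were below the lowest HT cow. Only CL cow 8564, at 56.4 CPM, lay within the HT range. The log2 difference at D7 was 1.85 ± 0.64, a level 3.60-fold higher in HT. Without HT cow 8513 it was 1.18, and without CL cow 8564 it was 2.45. The milk share at D7 was 14.5%, 4.24% and 3.92% in HT cows 8513, 8660 and 8668 and at most 1.96% in the other 9 cows. The luminal marker KRT19 had a median of 519 CPM in CL and 697 CPM in HT at D7. The part of either in the difference was not tested.

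DNAJC12 also had a higher median in HT than in CL at D14 and D25. It was 5.09, 12.4 and 50.6 CPM in CL and 13.9, 32.3 and 70.7 CPM in HT at D14, and 7.10, 13.9 and 29.8 CPM in CL and 12.6, 27.2 and 60.3 CPM in HT at D25. The groups overlapped at both. The median of KRT19 was 420 CPM in CL and 688 CPM in HT at D14, and 430 and 566 CPM at D25. The summed level of the 3 milk protein genes had medians of 3970 CPM in CL and 6977 CPM in HT at D14, and 3097 and 7306 CPM at D25. Their part in the DNAJC12 levels was not tested. The CL medians at D14 include the library of cow 7965, with KRT19 at 3.36 CPM and a summed milk gene level of 112.5 CPM. The DNAJC12 log2 differences were 0.30 ± 0.81 at D3, 0.89 ± 0.56 at D14 and 0.88 ± 0.42 at D25. At D3 the difference was -0.26 without HT cow 8541 and 0.75 without CL cow 8564. It was also below 0 without HT cow 8713, so leaving out either of these HT cows changed its direction. At D14 it was 0.58 without HT cow 8668 and 1.44 without CL cow 8603, and at D25 it was 0.56 without cow 8668. Leaving out the D14 library of cow 7965 gave 0.73 at D14, with a CL median of DNAJC12 of 16.7 CPM. At D-3, where a test was open, DNAJC12 was 6.38, 585 and 1679 CPM in the cows later cooled and 25.0, 86.8 and 2018 CPM in those later heat-stressed. The log2 difference of -0.08 had an interval of -3.23 to 3.07, the widest of the 11.

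Of 11 tests of HT vs. CL open for these genes, 0 reached an FDR of 0.05 in edgeR, 0 had an unadjusted p under 0.05, and DESeq2 gave 0 for both. The percent called over all loci was 0.0 at each of the 5 time points. The edgeR test gave 298, 97, 672, 247 and 333 loci with an unadjusted p under 0.05, in order of time from D-3 to D25, and DESeq2 gave 380, 114, 813, 267 and 392. DESeq2 called 3 loci at D7 and 1 at D25. Without cows 8513 and 8660 the edgeR counts were 63, 242, 334, 278 and 434. Without cow 8513 alone they were 131 at D-3 and 436 at D7, and 0 loci were called in these fits. Under the looser threshold of the study (unadjusted p of at most 0.005 and a log2 difference of at least 0.5), the percent called was 0.0544, 0.0204, 0.319, 0.0544 and 0.0408 in the same order. The treatment-by-time interaction was 0 of 2 for NUPR1 and SYVN1 (FDR = 1.0 for each by edgeR), with 0 at an unadjusted p under 0.05 in edgeR and in DESeq2. Its percent called was 0.0, and 85 loci had an unadjusted p under 0.05 in edgeR and 112 in DESeq2.

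The 3 genes went together to different degrees. Over the 60 samples, which share 12 cows, Pearson's r of log2 CPM was 0.85 between DNAJC12 and SYVN1, 0.65 between NUPR1 and SYVN1 and 0.63 between DNAJC12 and NUPR1. With the mean of each treatment and time point taken off, these were 0.82, 0.69 and 0.64. The samples also share scaling factors and milk shares, so these values are descriptions only.

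Among the 14714 loci, the pattern most like that of DNAJC12 was LOC786474, at r = 0.965. DUSP4, a phosphatase of MAP kinases, followed at 0.922, then FABP3, a fatty acid binding protein of lactating tissue, at 0.918. SPTLC3, of sphingolipid synthesis, was at 0.918 and XDH, which coats milk fat globules, at 0.914. With group means taken off, LOC786474 stayed first at 0.957, and HIBADH, an enzyme of valine breakdown, was next at 0.922. OSBPL1A was at 0.916, ANG2 at 0.909 and SLC25A21, a mitochondrial carrier, at 0.905.

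For SYVN1 the most alike were GPAT4, an enzyme of triglyceride synthesis, at 0.944 and TGOLN2, a protein of the trans-Golgi network, at 0.943. SLC7A1, a transporter of cationic amino acids, was at 0.938, ORAI1, a calcium channel of the plasma membrane, at 0.934 and ARFIP2 at 0.929. With group means taken off, TGOLN2 (0.940), SLC7A1 (0.929), GPAT4 (0.927), FAM73B (0.920) and an unnamed locus, XLOC_016536 (0.920), led. For NUPR1 they were PCDH1, a cadherin of cell adhesion, at 0.899, R3HDM4 at 0.898, NDRG4 at 0.897, FAM63A at 0.896 and TMBIM1 at 0.890. TMBIM1 (0.893), NDRG4 (0.892), PCDH1 (0.887), unnamed XLOC_010717 (0.880) and R3HDM4 (0.871) led with group means taken off. Of the 5 loci nearest to each gene, 0 were shared between genes on either measure.

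The wider stress and folding machinery was looked at through 6 lists that hold 141 genes. Only 31 of them carried a symbol in the part of the gene tables held here, and 30 passed the filter, DNAJC22 being the exception. A gene carries a symbol there because it differed between D3 and D-3 or between D7 and D3, so counts for these contrasts do not stand as independent evidence, and the remaining list genes were not analysed here. At D3 vs. D-3, 5 of the 30 rose and 18 fell (FDR of at most 0.05, edgeR), where 6.03% of all loci rose and 9.04% fell. Their median log2 difference was -0.46 against -0.01 over all loci. Scaled by library size alone, 9 rose and 5 fell, where 2217 of 14714 loci rose and 176 fell. The balance of directions thus depends on the scaling.

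Genes of the unfolded protein and integrated stress responses made up 10 of the 30, and at D3 2 rose and 7 fell. CHAC1, which breaks down glutathione and is a late target of this response, fell by 4.32 ± 0.65 on the log2 scale in the fit of means. Its median went from 1.06 CPM (0.156 to 48.2) to 0.383 CPM (0.051 to 1.02). The medians thus lay closer than the fitted means, and the highest D-3 libraries were far above all others. ATF4, counted as fallen at -0.80 ± 0.20, had a median of 229 CPM (175 to 1073) at D-3 and 238 CPM (197 to 380) at D3. The other genes counted as fallen had a lower median at D3, by little for ATF5 (14.3 CPM at D-3 and 12.7 CPM at D3). PSAT1 and PSPH, enzymes of serine synthesis, fell by 2.33 ± 0.31 and fell by 1.57 ± 0.25, respectively. PPP1R15A, which restarts translation after stress, rose by 0.66 ± 0.22 and SESN2, a brake on mTORC1 signalling, by 0.57 ± 0.15. NUPR1, a gene of the same response, was higher by 0.42 ± 0.39 in that contrast.

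Heat shock genes moved in both directions at D3. Of 5, 3 rose, namely HSPB6 by 1.35 ± 0.32, CRYAB by 0.96 ± 0.27 and HSPB1 by 0.52 ± 0.19. The chaperonin gene HSPD1 fell by 0.38 ± 0.12 and the HSP90 co-chaperone gene FKBP4 by 0.53 ± 0.16. HSPB6 and CRYAB are abundant in muscle, and the summed level of 4 myoepithelial markers (ACTA2, MYH11, CNN1 and KRT5) had a median of 1340 CPM (440 to 2661) at D-3 and 2254 CPM (887 to 3438) at D3. Its part in these differences was not tested. Of 9 J-domain genes 0 rose and 7 fell, led by DNAJB5, which fell by 1.11 ± 0.20, and DNAJB2 and DNAJA1, which each fell by 0.52. DNAJC12, of the same family, was lower by 3.93 in that contrast.

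QDPR, a reductase of pterin recycling, did not pass the test at D3. Of 3 genes of ER-associated degradation, the pathway of SYVN1, ERLEC1 fell by 0.69 ± 0.16 and DERL3 and FAM8A1 did not pass. The single ER folding enzyme with a symbol, ERO1A, did not pass either.

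At D7 vs. D3, the contrast for which NUPR1 was listed, 1 of the 30 genes rose and 3 fell, where 0.625% of all loci rose and 2.3% fell. PHGDH, the first enzyme of serine synthesis, rose by 0.95. PPP1R15A fell by 0.80, CRYAB by 1.09 and QDPR by 0.29. With the cow as a block 7 were called, 2 up and 5 down, and under library-size scaling 0 were called. Leaving out cow 8541 or cow 8564 also left 0 called. Leaving out cow 8647 left 1, leaving out 8060, 8660 or 8713 left 2, and leaving out 7965 gave 5. Calls over all loci moved as well, from 430 to 881 with the block and to 36 under library-size scaling. They were 126 without cow 8541 and 49 without cow 8564. In the 3 contrasts among D7, D14 and D25, 0 of the 30 were called by edgeR or DESeq2. Each tool gave 0, 1 and 1 genes with an unadjusted p under 0.05 for D14 vs. D7, D25 vs. D14 and D25 vs. D7.

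**Figure D4:**
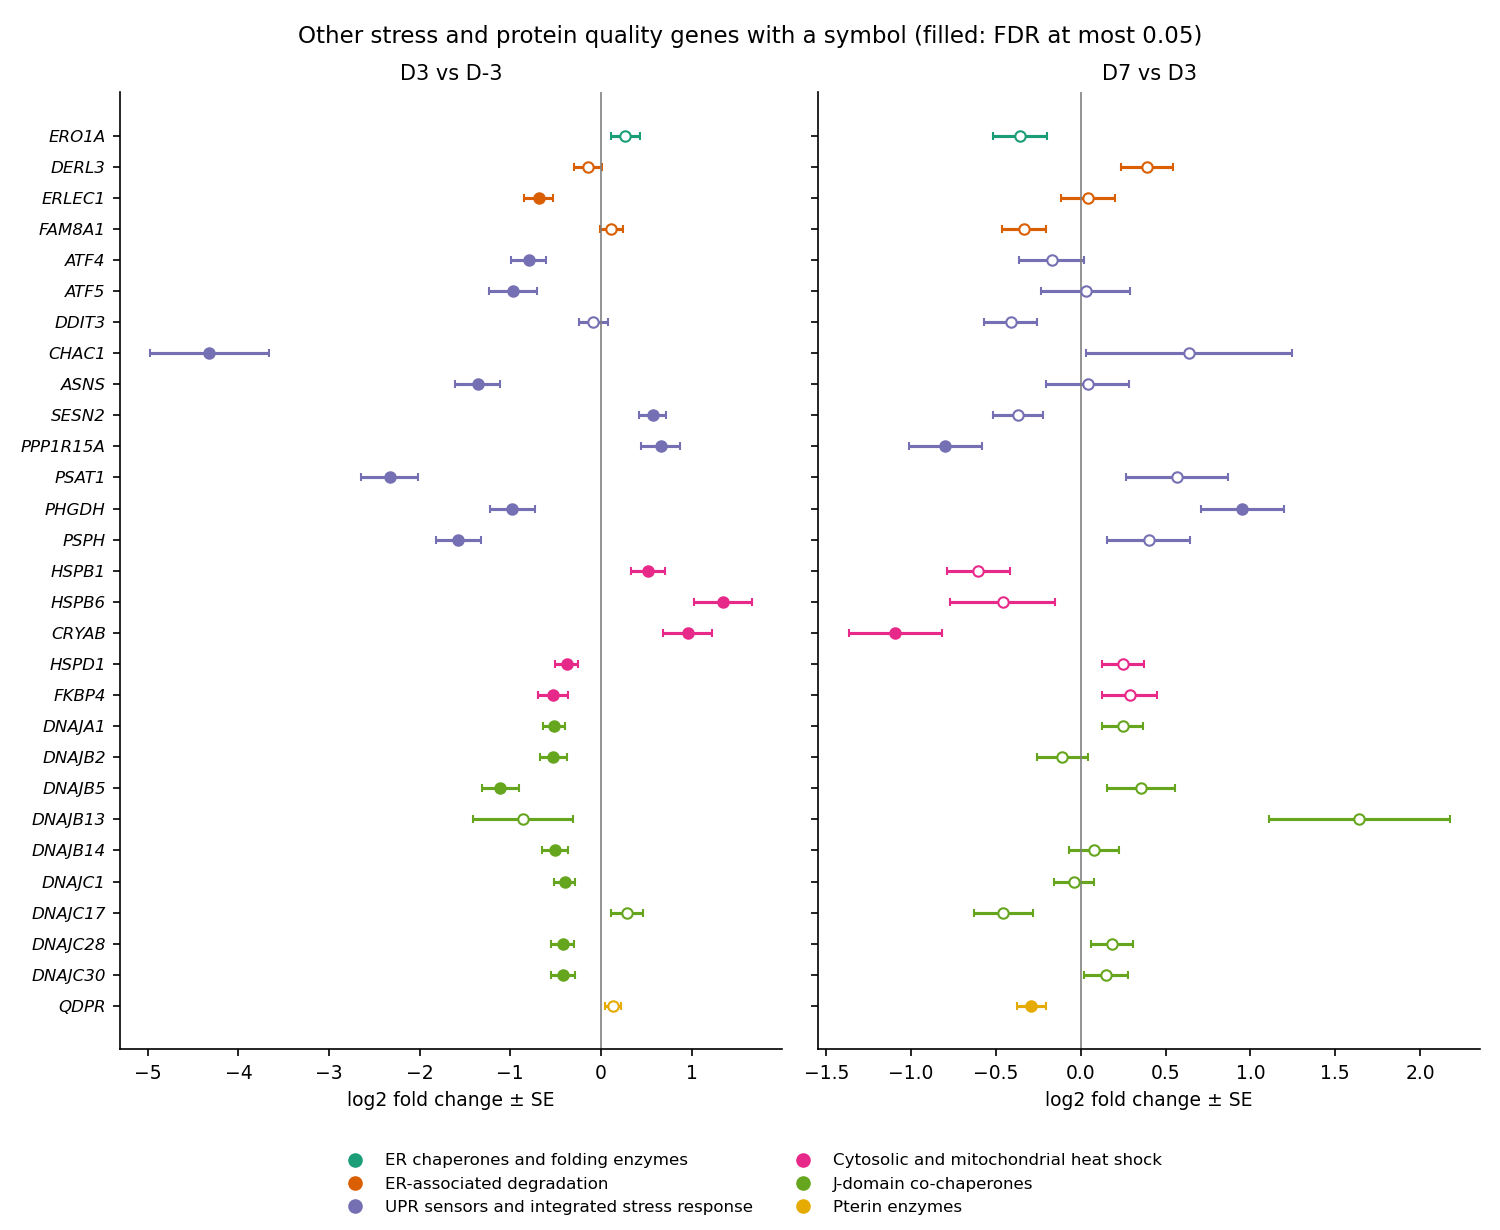
log2 fold changes ± SE of 29 of the 30 stress and folding genes with a symbol, grouped by list, at D3 vs. D-3 and at D7 vs. D3 (12 cows per time point), filled where the edgeR FDR was at most 0.05. At D3 vs. D-3, 17 of the genes drawn fell and 5 rose, with CHAC1 lowest at -4.32, and at D7 vs. D3 4 points are filled.

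Between HT and CL, 0 of the 30 list genes were called at any time point by edgeR or DESeq2. With an unadjusted p under 0.05, edgeR gave 1 gene, at D14, and DESeq2 gave 2 at D7 and 1 at D14. Among those nearest to the threshold at D7 was CHAC1. Its log2 difference was 1.23 ± 0.57 at levels of at most 2.91 CPM. Those at D14 were PSPH (0.41 ± 0.17) and HSPB1 (0.34 ± 0.18), at D25 PSPH (0.28 ± 0.18) and PPP1R15A (-0.30 ± 0.20), and at D3 PPP1R15A (-0.49 ± 0.46) and DNAJC1 (-0.17 ± 0.16). The groups overlapped for each of them. The median log2 difference of the 30 genes was 0.13 at both D7 and D14. It was -0.02 at D-3, -0.04 at D3 and 0.01 at D25. Over all loci it was between -0.0072 and 0.01. The 30 genes carry a symbol through differences over time, so all loci are not a like set. At D7 the summed level of the 3 milk protein genes had medians of 2179 CPM in CL and 27650 CPM in HT. Its part in the list values was not tested.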

How the data were processed

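Reads of poly(A) libraries (NEBNext Ultra, a kit that does not mark strand) were single-ended. Per the labels and the study's methods, the authors used FastQC, Trim Galore 0.4.1, TopHat2 2.0.13, Cufflinks 2.2.1 with Cuffmerge and ENSEMBL models, and HTSeq, and they deposited whole-number counts per locus without normalization. The methods name bosTau7 and the submitters' processing notes name UMD3.1, so no coordinates are printed. No sequence of these loci was used here.

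Each table holds 26073 entries for 25223 loci, all with a locus identifier and 3026 of them with a symbol here. There were 0 summary entries (such as unassigned reads), and 0 pairs of samples were identical. The 14714 loci that reached 1 CPM in 6 or more samples were fitted in edgeR 4.0.16 (R 4.3.3) with TMM factors and the quasi-likelihood F-test, over time in all 60 samples and for HT vs. CL in the 12 samples of a time point. A call needed an FDR (Benjamini-Hochberg, over all loci) of 0.05 or less. Log2 CPM used a prior count of 2. The fits were tested on simulated data. Tables and figures were made with SciPy 1.17.1, NumPy 2.4.6, Matplotlib 3.10.9 and pandas 2.3.3 in Python 3.11.15.

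The genes, lists and tests were chosen with earlier results of these data known. Named besides the 3 genes were up to 3 called genes each way per list in the contrasts D7 vs. D3 and D3 vs. D-3 (some others are named after their values were seen), the 2 list genes with the smallest p for HT vs. CL at each of D3, D7, D14 and D25, and the 5 loci most correlated with each gene. Of 42 cell type markers 11 carried a symbol, and leukocytes and plasma cells, with 0, were not analysed here. Of the list genes, 1 is counted but not reported by name.

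The cow is the replicate and pairs the samples of the time points, because the subject label gives the same animal. The main fit over time had no term for the cow and so did not use this pairing. Deviations from group means correlated at a median of 0.28 over 120 same-cow pairs (-0.50 to 0.84), and 53 matched their own cow best. A fit with the cow as a replicate block was an alternative, as were RLE factors, library size alone, TMM without milk protein genes, DESeq2 1.42.0, no filter (21807 loci) and a stricter one (13691), tagwise dispersions, other samples or treatment in the fit, labels of cows 8513 and 8660 exchanged at D14 and D25, and each cow left out. Leaving out the D14 library of cow 7965, or cows 8513 and 8660 together, was chosen after seeing the data.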

Additional observations from a re-analysis of the deposited data

Results flagged for a closer look

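In 4 of 30 groups of 6 cows, 1 per gene, treatment and time point, 1 cow lay far from the other 5. It was flagged where its gap to the nearest cow, as a share of the group's range, was over Dixon's 95% critical value for 6 samples. For normally distributed values, chance passes it in about 1 of 20 groups. The shares were taken on CPM and not on log2 CPM, so the rate for these data is not known. In CL at D-3, cow 7965 had NUPR1 at 395 CPM with the next cow at 135 CPM (gap share 0.721). In HT at D7, cow 8513 had NUPR1 at 128 CPM with the next at 58.6 CPM (0.855) and SYVN1 at 8.46 CPM with the next at 5.30 CPM (0.637). In CL at D7, cow 8564 had DNAJC12 at 56.4 CPM with the next at 20.2 CPM (0.742).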

How the results depend on the processing

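For the 3 genes, 0 of 9 tests late in the dry period, 0 of 11 of HT vs. CL and 0 of 2 interactions were called under every alternative run for them. The cow as a replicate block was run for the contrasts over time and the interaction, since each cow had 1 treatment. Signs changed only for values with intervals across 0, and the cause was not tested. NUPR1 at D14 vs. D7 (-0.01) was 0.026 with library size alone, 0.047 with the replicate block and 0.054 if labels were exchanged as well, 0.24 without cows 8513 and 8660, and -0.14 to 0.17 with each cow left out. SYVN1 was 0.0048 at D14 vs. D7 without cows 8513 and 8660, and -0.13 to 0.0028 at D25 vs. D14 with each cow left out. With each cow left out, HT vs. CL at D-3 was -0.41 to 1.03 for NUPR1, -1.02 to 0.11 for SYVN1 and -0.88 to 0.42 for DNAJC12. At D3 it was -0.31 to 0.87 for NUPR1 and -0.18 to 0.25 for SYVN1, and at D25 -0.066 to 0.18 for SYVN1. Without cows 8513 and 8660 it was 0.13 for SYVN1 and 0.47 for DNAJC12 at D-3. The called list genes at D3 vs. D-3 numbered 23, against 14 with library size alone and 10 with only the compared time points. At D7 vs. D3 they numbered 4, against 0 with library size alone, 7 with the cow as a replicate block, 8 with the block and exchanged labels, and 0 to 5 with each cow left out. Calls over all loci, in the same order, were 2217, 2393 and 845 at D3 vs. D-3. At D7 vs. D3 they were 430, 36, 881, 1022 and 49 to 609. Exchanging labels without the block leaves the fit as it was. TMM without milk protein genes left out the 3 with a symbol. Counts of SYVN1, from 54 reads, limit its precision, and 6 cows per treatment leave DNAJC12 intervals wide.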
